A study of Mus musculus with 4 samples.

Results

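A set of 37 genes that mark macrophages and dendritic cells was followed through 4 RNA sequencing libraries of sorted regulatory T (Treg) cells. The set was a list of gene symbols, chosen with earlier results of these data known. All 37 symbols were found among the 23284 symbols of the count files, and all 37 passed the expression filter of the tissue test. The groups were Treg cells of epididymal white adipose tissue (eWAT) of PPARg-2KR mice, eWAT Treg cells of WT mice, spleen Treg cells of PPARg-2KR mice and spleen Treg cells of WT mice, with 1 library each. All mice were C57BL/6 and 12 to 13 months old, and PPARg-2KR (2KR below) is an allele of Pparg, the gene of the fat cell and fat Treg nuclear receptor PPARγ, that the labels do not describe further. The spleen served as the control tissue. The sorting gate, and whether several mice were pooled, are details not given in the sources used here.

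Macrophages and dendritic cells are myeloid phagocytes. Macrophages engulf dead cells and lipid in fat and iron-rich red cells in the spleen, and are known by complement C1q, scavenger receptors and the CSF1 receptor. Dendritic cells carry antigen to T cells and depend on the FLT3 receptor, with a cross-presenting subset marked by Xcr1 and Clec9a. Tregs are T cells that restrain immune responses and are defined by the transcription factor Foxp3, and they are not a usual source of lysozyme, C1q or myeloid lectin transcripts.

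The libraries held 8315569 counted reads in 2KR eWAT, 11186660 in WT eWAT, 15993889 in 2KR spleen and 13250590 in WT spleen. Counts are given below per 1000000 counted reads (CPM) after TMM scaling (trimmed mean of M-values), and 3 reads, used as the floor for a gene with 0 reads, correspond to 0.311, 0.277, 0.197 and 0.242 CPM in those libraries. The label of the sorted cells was checked on 5 T cell genes. Foxp3 was at 800.6 CPM in 2KR eWAT and 1160 CPM in WT eWAT, against 1298 CPM in 2KR spleen and 1408 CPM in WT spleen, and Cd3e, a chain of the T cell receptor complex, at 571.8 and 672.4 CPM against 1161 and 1387 CPM in the same order. The summed level of the T cell genes Foxp3, Il2ra, Cd3e, Cd3g and Cd4 was 2943 CPM in 2KR eWAT, 3982 CPM in WT eWAT, 5249 CPM in 2KR spleen and 5804 CPM in WT spleen. All 4 libraries thus carried the genes that define the labelled cells. In the edgeR test given below, 3 of the 5 (Cd3e, Cd3g and Cd4) were called lower in eWAT, against 23.2% of all genes tested. Foxp3 and Il2ra were not called in that test (adjusted p = 0.16 and 0.51).

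The promoters of 6 members are shown because these genes lead the groups described below: the lysozymes, the myeloid lectins and the C1q chains. They are 250 bases ending just before the RefSeq start site, 5′ to 3′ on the gene's strand, from the GRCm38.p6 table: Lyz2 (chr10:117282273-117282522, minus strand), Lyz1 (chr10:117292869-117293118, minus strand), Cd209a (chr8:3748985-3749234, minus strand), Mgl2 (chr11:70130107-70130356, plus strand), C1qb (chr4:136886201-136886450, minus strand) and C1qc (chr4:136892915-136893164, minus strand). Capitals mark the purine-rich words GAGGAAG and GGAAGT, in either direction, which resemble the core bound by the myeloid transcription factor PU.1. Reverse complements read CTTCCTC and ACTTCC.
Lyz2: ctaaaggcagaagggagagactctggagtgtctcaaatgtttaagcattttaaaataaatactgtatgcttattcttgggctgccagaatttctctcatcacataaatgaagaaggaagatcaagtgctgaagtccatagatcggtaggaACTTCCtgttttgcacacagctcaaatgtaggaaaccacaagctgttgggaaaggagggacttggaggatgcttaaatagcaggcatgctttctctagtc
Lyz1: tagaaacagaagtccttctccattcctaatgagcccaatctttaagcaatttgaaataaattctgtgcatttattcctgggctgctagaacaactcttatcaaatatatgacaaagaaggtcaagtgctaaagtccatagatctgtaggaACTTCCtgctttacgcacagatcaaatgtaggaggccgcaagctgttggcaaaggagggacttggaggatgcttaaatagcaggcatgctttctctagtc
Cd209a: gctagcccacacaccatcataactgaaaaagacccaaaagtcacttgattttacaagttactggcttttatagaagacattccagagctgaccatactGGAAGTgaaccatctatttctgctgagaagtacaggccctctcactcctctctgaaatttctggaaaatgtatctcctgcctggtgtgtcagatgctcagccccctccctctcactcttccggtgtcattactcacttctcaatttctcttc
Mgl2: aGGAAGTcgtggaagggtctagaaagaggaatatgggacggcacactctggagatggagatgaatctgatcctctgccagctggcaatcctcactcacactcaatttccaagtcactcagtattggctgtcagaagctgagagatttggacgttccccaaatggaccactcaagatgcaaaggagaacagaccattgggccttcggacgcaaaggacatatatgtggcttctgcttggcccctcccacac
C1qb: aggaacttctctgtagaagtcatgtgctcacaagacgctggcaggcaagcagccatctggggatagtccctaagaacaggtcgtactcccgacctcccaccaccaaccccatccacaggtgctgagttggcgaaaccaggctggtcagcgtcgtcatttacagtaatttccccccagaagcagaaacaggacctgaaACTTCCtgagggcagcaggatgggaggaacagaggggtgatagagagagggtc
C1qc: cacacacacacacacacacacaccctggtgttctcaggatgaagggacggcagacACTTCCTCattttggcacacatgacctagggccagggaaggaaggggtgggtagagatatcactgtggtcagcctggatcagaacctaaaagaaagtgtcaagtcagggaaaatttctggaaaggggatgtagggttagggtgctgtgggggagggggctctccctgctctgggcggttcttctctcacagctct

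Lyz1 and Lyz2 carried GGAAGT, on the opposite strand, at the same place, 100 bases before their starts, and their promoters were identical at 200 of 248 aligned bases (80.7%). In C1qc the 2 words overlap and share 1 site. Of the 37 members, 28 had a promoter window in the table (250 bases before to 50 after the start). The planned word GAGGAAG was present in 8 of the 28 (28.6%), against 15.4% of 27025 gene windows, and GGAAGT, added after the first word had been counted, in 16 of 28 (57.1%) against 26.6%. Either word was present in 19 of 28 members (67.9%) and in 35.1% of gene windows. A match describes letters in a window and is not evidence of binding.

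Lyz2, which encodes the lysozyme of macrophages, monocytes and neutrophils, stood at 1209 CPM in 2KR eWAT and 1015 CPM in WT eWAT, against 24.2 CPM in 2KR spleen and 19.8 CPM in WT spleen. Lyz1, its Paneth cell neighbour on chromosome 10, was at 34.03 CPM in 2KR eWAT and 29.6 CPM in WT eWAT, against 0 reads in 2KR spleen and 1.13 CPM in WT spleen. Both lysozyme genes were far higher in the eWAT libraries and did not overlap between tissues. The tissue effect on Lyz2 was 5.66 on the log2 scale (SE 0.29, adjusted p = 8.97e-09 in edgeR's quasi-likelihood test of 2 eWAT against 2 spleen libraries, with Benjamini-Hochberg adjustment). For Lyz1 the ratio was 173-fold in 2KR mice, taking 3 reads for the spleen (lower counting limit 139.9), and 26.2-fold in WT mice. The longest coding transcripts of Lyz1 and Lyz2 were identical at 96.0% of aligned bases, although only 24 of 1164 stretches of 100 bases in Lyz1 were shared exactly with Lyz2. Treatment of reads with several hits is not given in the sources used here, and the Lyz1 values are uncertain for that reason.

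Across the set, 30 of 37 members were higher in eWAT and 2 were lower at an adjusted p under 0.05, in the same edgeR test over 16488 genes, of which 33.7% were higher and 23.2% lower. The members' median log2 fold change was 2.94, against 0.11 over all genes tested. Both eWAT libraries lay above both spleen libraries for 31 members (44.2% of all genes tested) and below them for 2 members (37.6% of all genes). The spread behind these p-values is that between single libraries, genotype difference included, and the labels do not say that the libraries came from separate animals. In a bulk sample, fewer cells of a type and less RNA per cell cannot be told apart.

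**Figure D1:**
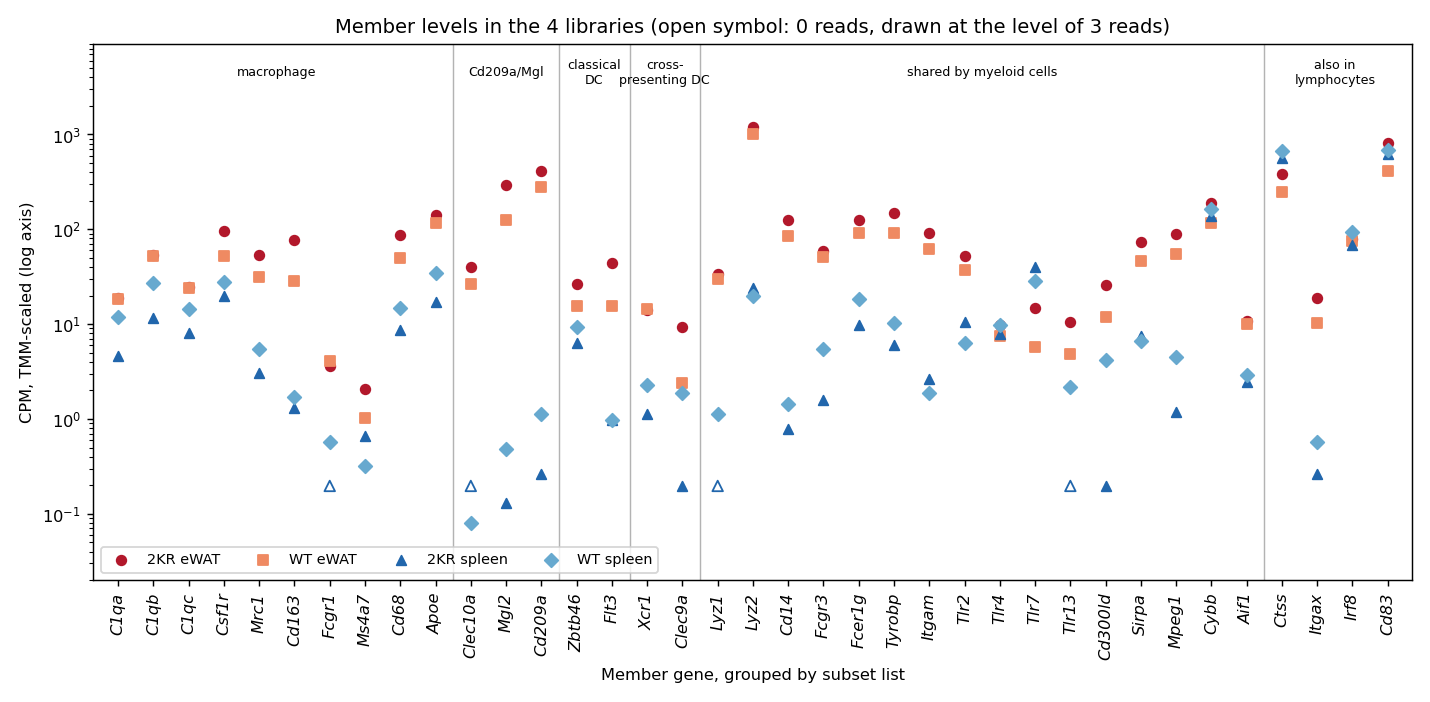
Level of each of the 37 members (TMM-scaled CPM, log axis) in the 4 libraries, grouped by the cell type list it belongs to; an open symbol marks 0 reads, drawn at the level of 3 reads. The eWAT points lie above the spleen points for most genes, most widely for Clec10a, Mgl2 and Cd209a, while Cybb, Irf8, Cd83 and Tlr4 overlap, and Ctss and Tlr7 are lower in eWAT.

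The 3 lectins that mark a Cd209a- and MGL-expressing dendritic cell or macrophage gave the widest tissue differences of the set. Cd209a, a mouse relative of DC-SIGN, was at 408.2 CPM in 2KR eWAT and 277.5 CPM in WT eWAT, against 0.262 CPM (4 reads) in 2KR spleen and 1.13 CPM (14 reads) in WT spleen. Mgl2, a galactose-binding lectin, was at 295.7 CPM in 2KR eWAT and 126.1 CPM in WT eWAT, against 0.131 CPM (2 reads) in 2KR spleen and 0.485 CPM (6 reads) in WT spleen. Clec10a, which encodes the related lectin MGL1, was at 40.2 CPM in 2KR eWAT and 26.3 CPM in WT eWAT, against 0 reads in 2KR spleen and 1 read in WT spleen. These lectins were thus close to absent from the spleen libraries. The Cd209a ratio was 1556-fold in 2KR mice (95% counting interval 607.3 to 5714.5) and 245-fold in WT mice (interval 146 to 449.4). The Mgl2 ratio was 2255-fold in 2KR mice (95% counting interval 624 to 18628) and 260-fold in WT mice (interval 119.2 to 710.3). For Clec10a it was 204-fold in 2KR mice, taking 3 reads for the spleen (lower 95% counting limit 165.2). In WT mice the Clec10a ratio was 326-fold (95% counting interval 58.0 to 12911). By the edgeR test the log2 tissue effects were 9.0 for Cd209a (SE 0.43, adjusted p = 5.18e-09), 9.45 for Mgl2 (SE 0.53, adjusted p = 1.88e-08) and 9.48 for Clec10a (SE 0.60, adjusted p = 6.53e-08), the last depending on the prior count. Clec10a and Mgl2 are neighbours on chromosome 11, with coding transcripts identical at 83.1% of aligned bases, so a division of reads between them is uncertain.

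The complement C1q chains behaved differently from the lectins: they were clearly measured in the spleen too. C1qa, C1qb and C1qc encode the 3 chains of the C1q molecule, made mainly by macrophages, and lie side by side on chromosome 4 (mm9 positions 136436060 to 136454759). C1qb was at 53.3 CPM in 2KR eWAT and 52.2 CPM in WT eWAT, against 11.5 CPM in 2KR spleen and 27.1 CPM in WT spleen. C1qa was at 18.9 CPM in 2KR eWAT and 18.3 CPM in WT eWAT, against 4.59 CPM in 2KR spleen and 12.0 CPM in WT spleen. C1qc was at 24.4 CPM in 2KR eWAT and 23.9 CPM in WT eWAT, against 8.13 CPM in 2KR spleen and 14.5 CPM in WT spleen. All 3 chains were higher in eWAT, at nearly equal levels in the 2 eWAT libraries, and lowest in 2KR spleen. The log2 tissue effects in the edgeR test were 1.46 for C1qb (SE 0.30, adjusted p = 0.00162), 1.18 for C1qa (SE 0.39, adjusted p = 0.0201) and 1.11 for C1qc (SE 0.30, adjusted p = 0.00755). Without the 2KR spleen library, a fit with 1 spleen library, the effects fell to 0.91 for C1qb, 0.58 for C1qa and 0.69 for C1qc. Within WT mice the eWAT to spleen ratio was 1.93-fold for C1qb, against 51.3-fold for Lyz2.

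Among the growth factor receptors, Csf1r, which binds the macrophage factors CSF1 and IL-34, was at 96.4 CPM in 2KR eWAT and 52.4 CPM in WT eWAT, against 19.9 CPM in 2KR spleen and 27.5 CPM in WT spleen. Flt3, the receptor that dendritic cells need, was at 44.6 CPM in 2KR eWAT and 15.6 CPM in WT eWAT, against 0.984 CPM in 2KR spleen and 0.969 CPM in WT spleen. Both rose in eWAT, by 1.65 for Csf1r and 4.93 for Flt3 on the log2 scale (edgeR adjusted p = 0.00034 and 5.59e-06). Zbtb46, a transcription factor that separates classical dendritic cells from other myeloid cells, was at 26.7 CPM in 2KR eWAT and 15.4 CPM in WT eWAT, against 6.30 CPM in 2KR spleen and 9.29 CPM in WT spleen (log2 effect 1.44, edgeR adjusted p = 0.00379). Irf8, a transcription factor of dendritic cells that B and T cells also use, was at 79.4 CPM in 2KR eWAT and 75.9 CPM in WT eWAT, against 67.6 CPM in 2KR spleen and 94.6 CPM in WT spleen, so that the tissues overlapped.

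The scavenger receptors and the remaining lectin rose in eWAT as well. Cd163, which takes up haemoglobin bound to haptoglobin, was at 77.4 CPM in 2KR eWAT and 28.4 CPM in WT eWAT, against 1.31 CPM in 2KR spleen and 1.70 CPM in WT spleen. Mrc1, the mannose receptor, was at 53.9 CPM in 2KR eWAT and 31.8 CPM in WT eWAT, against 3.08 CPM in 2KR spleen and 5.41 CPM in WT spleen. Their log2 tissue effects were 5.14 (SE 0.45) for Cd163 and 3.35 (SE 0.34) for Mrc1, with edgeR adjusted p = 1.31e-06 and 5.18e-06. Cd68, a lysosomal glycoprotein of phagocytes, was at 86.4 CPM in 2KR eWAT and 50.03 CPM in WT eWAT, against 8.59 CPM in 2KR spleen and 14.6 CPM in WT spleen. The cross-presenting dendritic cell genes were measured at low levels. Xcr1, a receptor for the chemokine XCL1, was at 14.1 CPM in 2KR eWAT and 14.5 CPM in WT eWAT, against 1.12 CPM in 2KR spleen and 2.26 CPM in WT spleen. Clec9a, which recognises dead cells, was at 9.24 CPM in 2KR eWAT and 2.40 CPM in WT eWAT, against 0.197 CPM in 2KR spleen and 1.86 CPM in WT spleen. Clec9a was therefore set apart mainly in 2KR mice: its eWAT to spleen ratio was 46.9-fold there (95% counting interval 15.6 to 231.9, on 3 spleen reads) and 1.29-fold in WT mice (interval 0.709 to 2.37). Its edgeR call (log2 effect 2.53, adjusted p = 0.0242) was lost with genotype as a further term (adjusted p = 0.0556) and by limma on FPKM (adjusted p = 0.0559). The log2 effect fell to 1.20 without the 2KR eWAT library and to 1.57 without the 2KR spleen library. Those fits have 1 library in a tissue.

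All 4 members for Fc receptors and their signalling chains were called higher in eWAT, against 33.7% of all genes tested. Tyrobp, the adaptor DAP12, was at 148.4 CPM in 2KR eWAT and 92.0 CPM in WT eWAT, against 5.97 CPM in 2KR spleen and 10.3 CPM in WT spleen. Fcer1g, the common Fc receptor γ chain, was at 125.0 CPM in 2KR eWAT and 91.9 CPM in WT eWAT, against 9.90 CPM in 2KR spleen and 18.6 CPM in WT spleen. Fcgr3, a low-affinity IgG receptor, was at 58.8 CPM in 2KR eWAT and 50.7 CPM in WT eWAT, against 1.57 CPM in 2KR spleen and 5.41 CPM in WT spleen. The log2 effects of these genes lay between 2.94 for Fcer1g and 4.01 for Fcgr3, with edgeR adjusted p of 3.92e-06 for Fcgr3 and 3.48e-07 for Tyrobp. Fcgr1, the high-affinity IgG receptor, was low throughout, at 3.63 CPM in 2KR eWAT and 4.06 CPM in WT eWAT. It had 0 reads in 2KR spleen and 0.565 CPM in WT spleen. The Fcgr1 ratio was 18.5-fold in 2KR mice, taking 3 reads for the spleen (lower counting limit 14.2), and 7.19-fold in WT mice.

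Pattern recognition receptors divided. Cd14, which presents lipopolysaccharide to the Toll-like receptor Tlr4, was at 125.9 CPM in 2KR eWAT and 85.5 CPM in WT eWAT, against 0.787 CPM in 2KR spleen and 1.45 CPM in WT spleen, a log2 effect of 6.58 (SE 0.33, edgeR adjusted p = 6.70e-09). Tlr2, a receptor for bacterial lipoproteins, was at 52.6 CPM in 2KR eWAT and 37.1 CPM in WT eWAT, against 10.4 CPM in 2KR spleen and 6.30 CPM in WT spleen. Tlr4 itself did not follow Cd14: it was at 9.75 CPM in 2KR eWAT and 7.57 CPM in WT eWAT, against 7.80 CPM in 2KR spleen and 9.85 CPM in WT spleen, and the tissues overlapped. Tlr7, an endosomal receptor for single-stranded RNA that B cells also carry, was at 14.6 CPM in 2KR eWAT and 5.72 CPM in WT eWAT, against 39.8 CPM in 2KR spleen and 28.6 CPM in WT spleen. Tlr7 was lower in eWAT by the edgeR test (log2 effect -1.75, SE 0.36, adjusted p = 0.0014). Tlr13, a mouse receptor for bacterial ribosomal RNA, was at 10.5 CPM in 2KR eWAT and 4.89 CPM in WT eWAT, against 0 reads in 2KR spleen and 2.18 CPM in WT spleen; its call (adjusted p = 0.0207) was lost in the DESeq2 Wald test (adjusted p = 0.391).

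**Figure D2:**
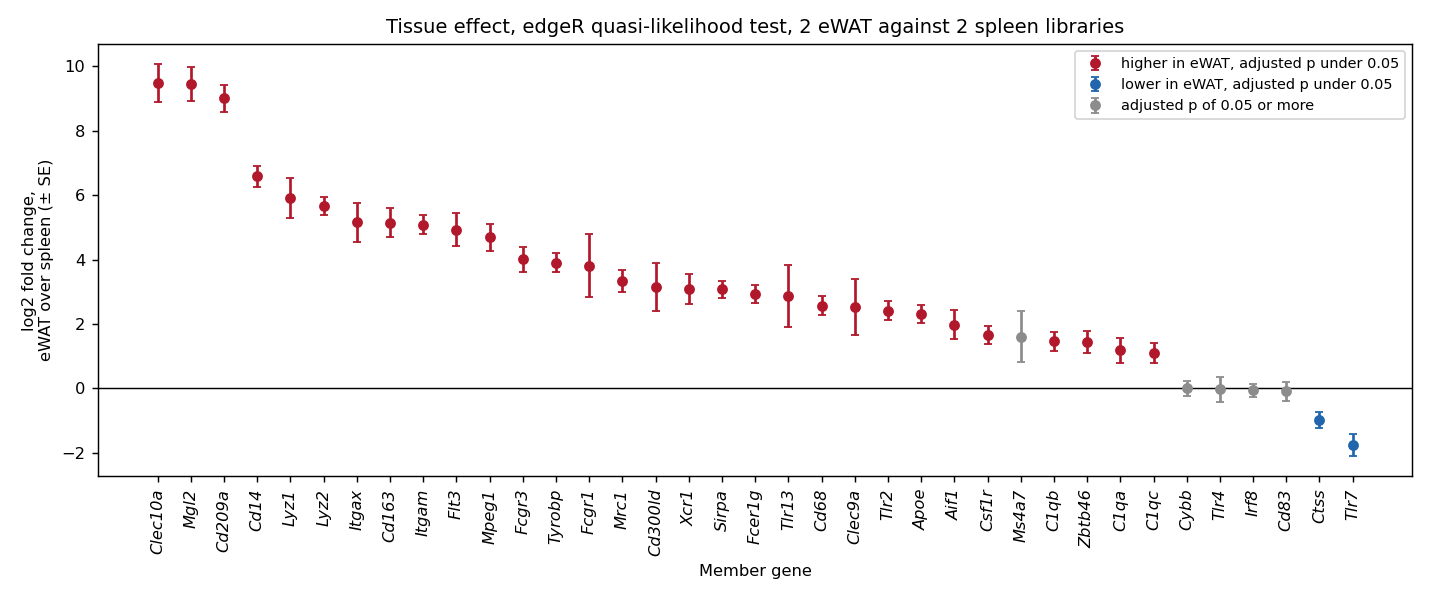
Log2 fold change of eWAT over spleen (edgeR quasi-likelihood fit, 2 libraries each, bars show ± SE) for the 37 members, sorted by size. Clec10a, Mgl2 and Cd209a stand above 9, the C1q chains between 1.11 and 1.46, and Ctss and Tlr7 are below 0 at -0.98 and -1.75.

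Of the surface proteins, Itgam (CD11b) was at 91.0 CPM in 2KR eWAT and 62.1 CPM in WT eWAT, against 2.62 CPM in 2KR spleen and 1.86 CPM in WT spleen. In the reference annotation, 71.0% of the 100-base stretches of Itgam also occur in the gene model Gm49368, which has no row of its own in the counts. Itgax (CD11c), an integrin chain of dendritic cells that some lymphocytes also make, was at 19.0 CPM in 2KR eWAT and 10.3 CPM in WT eWAT, against 0.262 CPM in 2KR spleen and 0.565 CPM in WT spleen. Sirpa, the receptor for the don't-eat-me signal CD47, was at 73.7 CPM in 2KR eWAT and 46.6 CPM in WT eWAT, against 7.54 CPM in 2KR spleen and 6.62 CPM in WT spleen. The integrins rose in eWAT by 5.08 and 5.15 on the log2 scale and Sirpa by 3.09 (edgeR adjusted p of 2.67e-08 for Itgam, 1.67e-05 for Itgax and 1.09e-06 for Sirpa). Cd300ld, a receptor of the CD300 family on myeloid cells, was at 26.2 CPM in 2KR eWAT and 12.0 CPM in WT eWAT, against 0.197 CPM (3 reads) in 2KR spleen and 4.20 CPM in WT spleen. Its edgeR call (adjusted p = 0.00326) was lost in the DESeq2 Wald test (adjusted p = 0.128). Ms4a7, a membrane protein of macrophages, stayed at or below 2.08 CPM in every library and was not called (adjusted p = 0.0914).

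Cd83, found on mature dendritic cells and on activated lymphocytes, was at 822.5 CPM in 2KR eWAT and 414.8 CPM in WT eWAT, against 629.9 CPM in 2KR spleen and 687.8 CPM in WT spleen. The spleen values lay between those of the 2 eWAT libraries. Its edgeR tissue effect was -0.09 on the log2 scale (adjusted p = 0.817), and -0.73 without the 2KR eWAT library, a fit with 1 eWAT library. Ctss, the lysosomal protease cathepsin S, was at 380.1 CPM in 2KR eWAT and 246.2 CPM in WT eWAT, against 561.7 CPM in 2KR spleen and 674.0 CPM in WT spleen (log2 effect -0.98, SE 0.26, edgeR adjusted p = 0.00621). That call was lost by limma on FPKM (adjusted p = 0.0502). The log2 effect was -0.89 without the WT spleen library and -1.165 without the 2KR spleen library, fits with 1 spleen library. Cybb, the catalytic chain of the phagocyte NADPH oxidase, was at 189.7 CPM in 2KR eWAT and 115.7 CPM in WT eWAT, against 138.2 CPM in 2KR spleen and 165.5 CPM in WT spleen. It overlapped between tissues. By contrast Mpeg1, a pore-forming protein of phagocytes, was at 88.6 CPM in 2KR eWAT and 54.4 CPM in WT eWAT, against 1.18 CPM in 2KR spleen and 4.52 CPM in WT spleen (log2 effect 4.69, edgeR adjusted p = 1.95e-06). Apoe, the lipid carrier of macrophages, was at 140.8 CPM in 2KR eWAT and 115.8 CPM in WT eWAT, against 17.3 CPM in 2KR spleen and 34.5 CPM in WT spleen (log2 effect 2.32, edgeR adjusted p = 2.16e-05). Aif1, the macrophage protein IBA1, was at 10.9 CPM in 2KR eWAT and 10.1 CPM in WT eWAT, against 2.43 CPM in 2KR spleen and 2.91 CPM in WT spleen.

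Summed over all 37 members, the set took 0.576% of counted reads in 2KR eWAT (exact Clopper-Pearson 95% interval 0.570 to 0.581%) and 0.322% in WT eWAT (0.319 to 0.325%), against 0.152% in 2KR spleen (0.150 to 0.154%) and 0.178% in WT spleen (0.175 to 0.180%). These intervals cover counting error only. Members that lymphocytes are also known to express weighed heavily in the spleen. Without Ctss, Itgax, Irf8 and Cd83, the other 33 genes took 0.425% of reads in 2KR eWAT and 0.250% in WT eWAT, against 0.0321% in 2KR spleen and 0.0414% in WT spleen. In the spleen Cybb alone supplied 41.0% of those reads in 2KR mice and 37.3% in WT mice. Without Cybb and Tlr7 too, a choice made after their values were seen, the share was 0.401% in 2KR eWAT and 0.238% in WT eWAT, against 0.0151% in 2KR spleen and 0.0233% in WT spleen. On that narrower base the eWAT to spleen ratio of summed CPM was 21.8-fold in 2KR mice and 9.85-fold in WT mice. The share is one of RNA, since no library of purified macrophages or dendritic cells was among the 4.

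**Figure D3:**
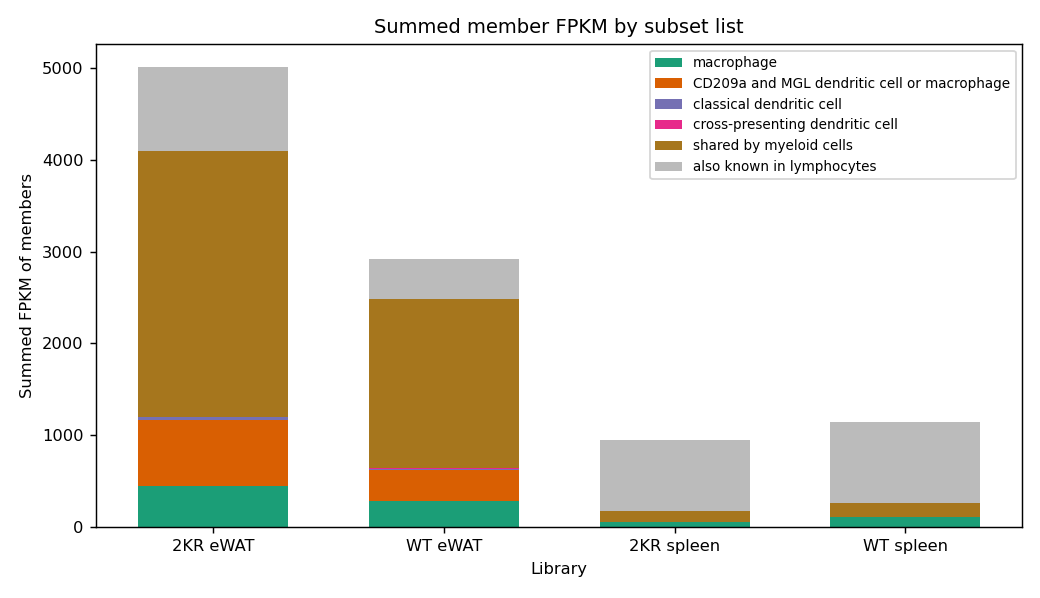
FPKM summed over the members of each subset list, stacked for each library (bars start at 0). Genes shared by myeloid cells make up most of the eWAT bars, the CD209a and MGL lectins are visible in eWAT and not in spleen, and genes also known in lymphocytes make up most of the spleen bars.

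Levels can be compared between genes on the length-scaled FPKM scale. In eWAT, Lyz2 was the most abundant member at 1699 FPKM in 2KR mice and 1164 FPKM in WT mice, against 301 and 365 FPKM of Foxp3 in the same libraries. Next in 2KR eWAT came Cd83 at 485 FPKM, Tyrobp at 469 FPKM, Ctss at 387 FPKM, Cd209a at 371 FPKM, Fcer1g at 322 FPKM and Mgl2 at 291 FPKM. In WT eWAT the leading members after Lyz2 overlapped with these: Tyrobp stood at 243 FPKM, Cd209a at 208 FPKM, Ctss at 205 FPKM, Fcer1g at 197 FPKM, Apoe at 104 FPKM and Mgl2 at 104 FPKM, with Cd83 between Ctss and Fcer1g. In spleen the lymphocyte-shared genes led, with Ctss at 457 FPKM in 2KR mice and 534 FPKM in WT mice and Cd83 at 297 and 318 FPKM, and Lyz2 was at only 27.0 FPKM in 2KR mice and 22.1 FPKM in WT mice.

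The subset lists showed which myeloid genes the eWAT and spleen libraries held. The 3 CD209a and MGL lectins summed to 721 FPKM in 2KR eWAT and 345 FPKM in WT eWAT, against 0.233 FPKM in 2KR spleen and 0.398 FPKM in WT spleen. The 10 macrophage genes summed to 446 FPKM in 2KR eWAT and 278 FPKM in WT eWAT, against 54.1 FPKM in 2KR spleen and 107 FPKM in WT spleen. Macrophage genes were therefore a measurable part of the spleen values, at 5.69% of summed member FPKM in 2KR mice and 9.37% in WT mice, while the lectins were under 0.04% there. In eWAT the lectins made up 14.4% of summed member FPKM in 2KR mice and 11.8% in WT mice, and the macrophage genes 8.90% and 9.54%. Classical dendritic cell genes (Zbtb46 and Flt3) summed to 26.9 FPKM in 2KR eWAT and 10.2 FPKM in WT eWAT, against 2.55 FPKM in 2KR spleen and 3.77 FPKM in WT spleen. Cross-presenting dendritic cell genes (Xcr1 and Clec9a) summed to 6.66 FPKM in 2KR eWAT and 3.64 FPKM in WT eWAT, against 0.235 FPKM in 2KR spleen and 0.852 FPKM in WT spleen.

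Ratios between members also differed by tissue. C1qb stood at 4.19% of Lyz2 in FPKM in 2KR eWAT and 4.91% in WT eWAT, against 45.8% in 2KR spleen and 128% in WT spleen. Cd209a stood at 21.9% of Lyz2 in 2KR eWAT and 17.9% in WT eWAT, against 0.527% in 2KR spleen and 1.56% in WT spleen. Ratios among the C1q chains varied less, with C1qa at 34.1% of C1qb in 2KR eWAT and 33.0% in WT eWAT, against 39.3% in 2KR spleen and 43.6% in WT spleen, and C1qc at 46.0% of C1qb in 2KR eWAT and 46.4% in WT eWAT, against 71.3% in 2KR spleen and 54.6% in WT spleen. The spleen libraries thus held C1q with little Cd209a, whereas the eWAT libraries held more Lyz2 and Cd209a for each unit of C1qb. With 1 library per group these ratios have no replicate check.

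Between the genotypes in eWAT, most members were higher in 2KR, while 8 had ratios that counting error could not tell from 0, the C1q chains, Xcr1, Irf8, Lyz1, Aif1 and Tlr4. There is 1 library per group, so no test is possible, and values are log2 ratios of CPM (2KR over WT, prior count of 2) with 95% intervals for counting error only. Of the 35 members at 5 CPM or more in a library, 34 were above 0 (43.8% of 12307 such genes), 27 had an interval above 0 (24.9%), 0 had one below 0 (37.8%), 7 were at 1 or higher (5.31%) and 0 were at -1 or lower (2.36%). The members' median was 0.63, against -0.08 over all genes. Total-count scaling in place of TMM moved the median of all genes up by 0.26 and the count of members at 1 or higher to 13. FPKM also moved the median of all genes up by 0.26, and gave 14 such members. The share of all genes at 1 or higher was not counted under either scaling. The summed T cell genes were at 2943 CPM in 2KR eWAT and 3982 CPM in WT eWAT, and their part in these ratios was not tested.

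The 7 members at 1 or higher came from several groups. Clec9a and Tlr13 among them reached 5 CPM in 2KR eWAT alone. The cut-off thus admitted these genes through the library in which they were high. Clec9a led with 1.87 (interval 1.30 to 2.63), followed by Flt3 with 1.51 (1.26 to 1.78), Cd163 with 1.44 (1.25 to 1.64), Tlr7 with 1.33 (0.91 to 1.81), Mgl2 with 1.23 (1.14 to 1.32), Cd300ld with 1.11 (0.81 to 1.44) and Tlr13 with 1.07 (0.61 to 1.61). Just under 1 stood Cd83, at 0.99 (0.93 to 1.04), and Csf1r, at 0.88 (0.73 to 1.03). At the low end, C1qa was at 0.05 (-0.25 to 0.34), C1qb at 0.03 (-0.14 to 0.21), C1qc at 0.03 (-0.23 to 0.29), Irf8 at 0.06 and Xcr1 at -0.04, and Lyz2, with the most reads, at 0.25 (0.21 to 0.29). With total-count scaling, its shift of all genes included, the C1q chains were at 0.29 to 0.30 and Xcr1 at 0.22, above 0. Macrophage genes at 5 CPM or more in a library thus spread from C1qc to Cd163, and the cross-presenting pair from Xcr1 to Clec9a. Fcgr1 and Ms4a7 stayed under 5 CPM in every library and were left out. Their ratios in eWAT were -0.15 (-0.84 to 0.51) for Fcgr1 and 0.92 (-0.10 to 2.24) for Ms4a7. Among genes with a mean under 20 CPM in eWAT, 4 of 9 members and 12.2% of all genes were at 1 or higher, and 0 of 9 members and 2.33% of all genes were at -1 or lower.

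**Figure D4:**
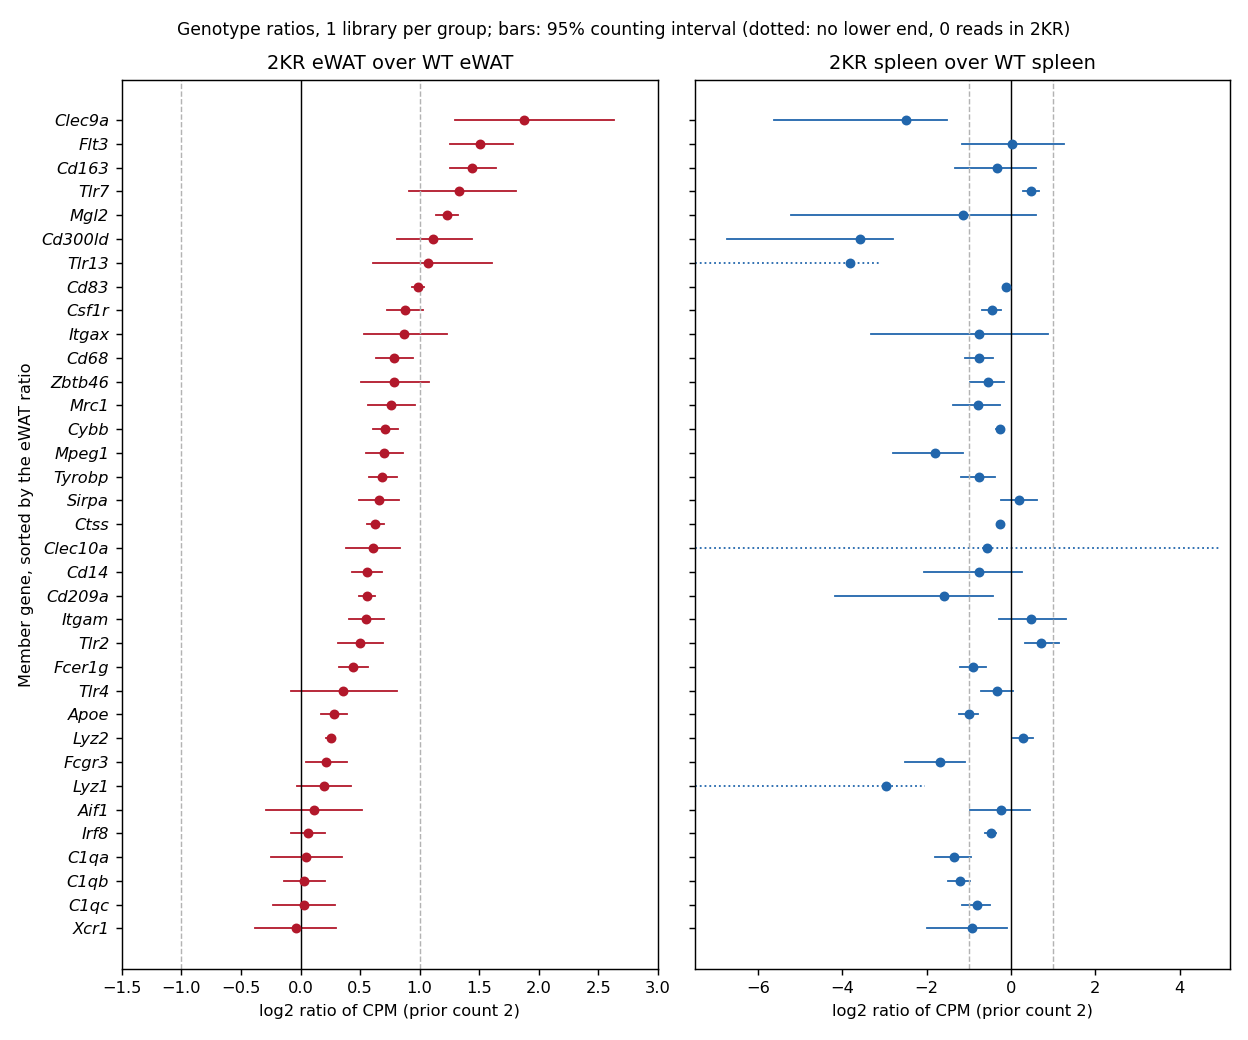
Log2 ratio of CPM, 2KR over WT, for 35 members in eWAT (left) and spleen (right, wider scale), with 95% counting intervals; a dotted bar has no lower end because the 2KR library had 0 reads. In eWAT nearly all points lie right of 0 and the C1q chains and Xcr1 lie close to it, while in spleen most points lie left of 0.

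In the spleen the same comparison ran mostly the other way. Of the 35 members, 6 were above 0 (40.9% of all such genes) and 10 were at -1 or lower (5.71%), with 0 at 1 or higher (1.03%). Intervals lay below 0 for 22 members (30% of all genes) and above 0 for 3 (18.4%), namely Lyz2, Tlr2 and Tlr7. The members' median was -0.77, against -0.07 over all genes. The C1q chains, level in eWAT, were lower in 2KR spleen, at -1.35 for C1qa (-1.81 to -0.96), -1.22 for C1qb (-1.5 to -0.96) and -0.82 for C1qc (-1.17 to -0.49). Apoe was at -0.99 (-1.23 to -0.77), Fcgr3 at -1.68 (-2.52 to -1.09), Mpeg1 at -1.80 (-2.79 to -1.15) and Cd300ld at -3.59 (-6.74 to -2.79). Most members were rare in spleen, and of the 27 with a mean under 20 CPM, 10 were at -1 or lower, against 15% of all genes in that range, and 0 were at 1 or higher, against 2.64%. Level was not matched within that range. Several of these members reached 5 CPM in eWAT only, such as Mgl2 with 2 and 6 reads in 2KR and WT spleen. Tlr13 and Lyz1 had 0 reads in 2KR spleen against 27 and 14 in WT spleen. For 16 of the 35 members the interval lay above 0 in eWAT and below 0 in spleen (6.44% of all such genes), and the difference between tissues was not tested.

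Genes of the same cell types outside the set were counted in the tissue test as well. Over all 16488 genes tested, 33.7% were higher in eWAT and 23.2% were lower. No list was tested as a set. Of 15 other macrophage genes found, 11 were higher in eWAT, 2 were lower and 2 were too low to test. Emr1, the gene of the macrophage marker F4/80, was at 42.0 CPM in 2KR eWAT and 29.8 CPM in WT eWAT, against 10.7 CPM in 2KR spleen and 12.3 CPM in WT spleen. The exceptions were Axl, a receptor for dying cells, with 46.8 and 72.3 CPM in 2KR and WT eWAT against 108.7 and 172.6 CPM in 2KR and WT spleen, and Cd5l, a secreted protein of spleen red pulp macrophages. Of 6 other monocyte genes 5 were higher in eWAT, and of 8 other classical dendritic cell genes 7 were higher and 1 was too low to test. In the dendritic cell list Plbd1 was at 410.7 CPM in 2KR eWAT and 215.3 CPM in WT eWAT, against 5.31 CPM in 2KR spleen and 4.28 CPM in WT spleen. Of 5 myeloid transcription factors and growth factor receptors, 4 were higher, with Cebpb at 299.6 and 351.1 CPM in 2KR and WT eWAT against 90.5 and 105.8 CPM in 2KR and WT spleen, and Cebpa was lower. Of 4 plasmacytoid dendritic cell genes, 1 was higher, 1 was lower and 2 were too low to test.

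Genes of other cell types were counted too, beside the 33.7% higher and 23.2% lower in eWAT over all genes tested. These short lists were not tested as sets. Neutrophil genes were scarce, summing to 11.2 CPM in 2KR eWAT and 11.5 CPM in WT eWAT, against 1.84 CPM in 2KR spleen and 3.88 CPM in WT spleen, with 3 of 6 called higher in eWAT. Mast cell genes summed to 73.6 CPM in 2KR eWAT and 11.8 CPM in WT eWAT, against 6.69 CPM in 2KR spleen and 7.75 CPM in WT spleen. Of these, 2 of 5 were called higher in eWAT and 3 did not pass the expression filter. Those 3 were nearly confined to 2KR eWAT, with Tpsb2 at 18.2 CPM, Cma1 at 11.5 CPM and Mcpt4 at 10.6 CPM there. In WT eWAT they were at 0.369 CPM, 0.739 CPM and 0 reads, and Mcpt4 had reads in 2KR eWAT only. B cell genes summed to 150.0 CPM in 2KR eWAT and 85.5 CPM in WT eWAT, against 80.2 CPM in 2KR spleen and 94.1 CPM in WT spleen, with 3 of 6 called higher in eWAT, 1 lower and 2 not called. NK cell genes summed to 10.3 CPM in 2KR eWAT and 10.8 CPM in WT eWAT, against 11.8 CPM in 2KR spleen and 17.0 CPM in WT spleen, with 1 of 4 called lower in eWAT. Fibroblast genes went the other way between genotypes in eWAT: they summed to 192.8 CPM in 2KR eWAT and 461.5 CPM in WT eWAT, against 3.67 CPM in 2KR spleen and 4.93 CPM in WT spleen, and all 4 were higher in eWAT. The part of other cells in the members' values was not tested.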

How the data were processed

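RNA sequencing of Treg cells gave 1 library for each tissue and genotype, grouped by the labels. The deposited counts are whole numbers of reads per gene symbol made by the authors without scaling. Per the deposited readme, Tophat 2.1.0 placed the 100 bp reads on mm9 with at most 4 mismatches and 10 hits per read, after conversion by bcl2fastq 1.8.4, and Cufflinks 2.0.2 made the deposited FPKM values. The labels also name mm8. For the counting tool, its strand setting and multiple hits, the sources used here give nothing.

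Counts were scaled by TMM and tested with edgeR 4.0.16 in R 4.3.3 (quasi-likelihood, edgeR expression filter, Benjamini-Hochberg over 16488 genes, threshold 0.05), 2 eWAT against 2 spleen libraries, with a biological coefficient of variation of 0.221. Alternatives used DESeq2 1.42.0 and limma 3.58.1 on log2(FPKM + 0.1). Genotype ratios have no test, since each group has 1 library: their 95% intervals are exact conditional binomial intervals on reads, and their background is genes at 5 CPM or more in a library. A gene with 0 reads was given 3 reads to compute its fold, which is not a lower bound. Other steps used Python 3.11.15, with Biopython 1.88 for alignments and exact matches of promoter words on both strands.

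Members and lists were chosen with earlier results of these data known. Members could all be named, with values in each library for those at 10 CPM in a library or at 0 reads; Clec9a, Tlr4 and Ms4a7 were added after their values were seen. Of the other lists, named genes were among the 4 with the highest mean CPM, except Cd5l, Cebpa and Mcpt4, chosen after their values were seen. Promoters were matched by symbol.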

Additional observations from a re-analysis of the deposited data

Results flagged for a closer look

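For 16 of 35 members, against 6.44% of 12307 genes at 5 CPM or more in a library, the genotype ratio lay on opposite sides of 0 in the tissues, above it in eWAT and below it in spleen, with counting intervals that did not reach 0 in either. The difference between tissues (log2 ratio of 2KR over WT in eWAT minus that in spleen) was not tested, with 1 library in each group. Among receptors and surface proteins it was 1.34 for Csf1r, 1.54 for Mrc1, 1.54 for Cd68, 2.15 for Cd209a, 4.35 for Clec9a, 4.70 for Cd300ld and 4.89 for Tlr13. Among Fc receptor genes it was 1.90 for Fcgr3, 1.34 for Fcer1g and 1.45 for Tyrobp. For the other members it was 1.27 for Apoe, 1.33 for Zbtb46, 2.50 for Mpeg1, 0.97 for Cybb, 0.89 for Ctss and 1.11 for Cd83. Clec9a and Cd300ld each rested on 3 reads in 2KR spleen, Cd209a on 4 reads and Tlr13 on 0 reads, and their ratios depend on the prior count. Summed over the T cell genes, 2KR and WT eWAT held 2943 and 3982 CPM, and 2KR and WT spleen held 5249 and 5804 CPM. The part of this in the differences was not tested.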

How the results depend on the processing

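No paired analysis was possible because each group has 1 library and no replicate number to pair by. The fit with genotype as a further term, which sets each eWAT library beside the spleen library of its genotype, gave 29 members higher and 2 lower. The number of members higher in eWAT was 28 to 30 over the alternatives that kept all 4 libraries. Members lower in eWAT numbered 2, with 1 by limma on FPKM. Fits with a library left out have 1 library in a tissue, so only their effect sizes are given. In eWAT 7 members had a log2 genotype ratio of 1 or higher, against 5.31% of all genes at 5 CPM or more in a library. Total count gave 13 members and FPKM gave 14, with the median of all genes up by 0.26 under each. The share of all genes was not counted under those scalings. For the summed members (TMM log2 ratios of 0.58 for 2KR over WT eWAT, -0.25 for 2KR over WT spleen, 1.64 for eWAT over spleen in 2KR mice and 0.81 in WT mice), total count gave 0.84, -0.22, 1.92 and 0.86, and DESeq2 size factors gave 0.55, -0.19, 1.46 and 0.72. FPKM gave 0.78 for the first, 2.40 for the third and 1.35 for the last. Leaving out the lymphocyte-shared genes gave 0.51, -0.40, 3.44 and 2.54, leaving out Cd83 alone gave 0.51, -0.33, 2.1 and 1.26, and leaving out Cybb and Tlr7 with the first group (added after seeing the data) gave 0.49, -0.65, 4.45 and 3.30. Summed FPKM and summed CPM gave log2 ratios of 2KR over WT eWAT of 0.68 and 0.56 for macrophage genes. These log2 ratios were 1.06 and 0.79 for the lectins, 1.40 and 1.20 for classical and 0.87 and 0.47 for cross-presenting dendritic cell genes. They were 0.65 and 0.40 for shared genes, and 1.07 and 0.80 for lymphocyte-shared genes. The promoter share was 28.6% for GAGGAAG and 57.1% for the added GGAAGT.

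Members whose tissue effect changed sign under an alternative were all uncalled in the reported test. Tlr4 (-0.02) was 0.16 by total count, 0.12 by limma and -0.28 to 0.10 with a library left out. Irf8 (-0.06) was 0.12 by total count, 0.12 by limma and -0.34 to 0.16 with a library left out. Cd83 (-0.09) was 0.13 by total count, 0.019 by limma and -0.73 to 0.23 with a library left out. Cybb (0.01) was -0.079 with no filter, -0.025 with a genotype term, -0.13 by DESeq2 and -0.46 to 0.23 with a library left out. In spleen the log2 genotype ratio of Mgl2 (-1.13) was 0.30 by FPKM, on 2 and 6 reads. The cause of these shifts was not tested. Counting intervals of the genotype ratio included 0 for 8 of 35 members in eWAT and 10 of 35 in spleen.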
